A study of Mus musculus with 6 samples.

Results

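The genes examined here encode the eosinophil ribonucleases and 2 other proteins of the eosinophil granule. They are 8 of the 54532 genes in the deposited count table and were taken by name: the ribonucleases Rnase2a, Rnase2b, Ear1, Ear2, Ear6 and Ear10, the major basic protein gene Prg2, and the eosinophil peroxidase gene Epx. The list was chosen by their counts in these same libraries, since the difference of Rnase2a between the groups was already known, so levels and differences are given as a description with no test. RNA-seq was performed on mouse primary T cells in 2 groups of 3 samples. In the control group, the T cells had been incubated with cells that were not treated with DB2313, and in the DB2313 group with cells that had received DB2313, a small molecule that inhibits the transcription factor Spi1 (PU.1). The study's methods describe CD8T cells of the spleen, stimulated by anti-CD3/CD28 beads, that shared the culture with macrophages activated by IFN-γ, in both groups, whereas GEO's labels name the cocultured cells as DC cells. Strain, sex and age of the mice that gave these cells are not given in the sources used here, which also do not say whether the 3 samples of a group came from separate cultures, so errors and p-values measure the spread between these samples, which may be technical.

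Eosinophil ribonucleases belong to the RNase A superfamily, secreted enzymes that cut RNA and that are held together by disulfide bonds. In the mouse, this branch was multiplied by repeated gene duplication on chromosome 14, and several copies no longer encode a protein. Eosinophils store the ribonucleases in their granules beside major basic protein and eosinophil peroxidase, which damage parasites and host tissue when released. Some copies are also transcribed outside eosinophils, for example Ear1 and Ear2 in macrophages of the lung.

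The libraries held 16611975 to 18596217 counts. Both T cell and myeloid genes were counted in all 6 libraries. A list of 15 T cell genes took 0.263% to 0.265% of the counts in the control libraries and 0.428% to 0.429% in the DB2313 libraries, and a list of 12 macrophage genes took 1.03% to 1.05% and 0.355% to 0.364%. In such mixed RNA, fewer cells of a type and less RNA per cell cannot be told apart.

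The copies resemble each other, so their sequences were compared before their counts. The first 90 coding bases are shown for the 6 ribonucleases, from GENCODE mouse release M21 (GRCm38), with capitals marking each base that differs from Rnase2a.
Rnase2a: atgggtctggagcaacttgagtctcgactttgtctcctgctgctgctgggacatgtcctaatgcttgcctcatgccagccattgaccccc
Rnase2b: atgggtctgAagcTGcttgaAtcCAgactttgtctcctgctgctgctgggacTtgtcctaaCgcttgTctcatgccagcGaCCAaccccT
Ear1: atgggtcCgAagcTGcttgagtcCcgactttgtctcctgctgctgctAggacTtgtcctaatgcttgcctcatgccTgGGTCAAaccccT
Ear2: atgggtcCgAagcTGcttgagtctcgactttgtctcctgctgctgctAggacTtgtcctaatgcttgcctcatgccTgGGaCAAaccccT
Ear6: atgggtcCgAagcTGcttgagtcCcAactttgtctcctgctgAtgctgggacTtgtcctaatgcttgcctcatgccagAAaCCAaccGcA
Ear10: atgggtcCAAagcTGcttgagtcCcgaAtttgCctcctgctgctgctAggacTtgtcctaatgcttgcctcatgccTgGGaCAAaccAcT
Within this stretch, Rnase2b differed from Rnase2a at 14 bases, Ear2 at 13 and Ear6 at 15. Over the whole coding sequence of 465 or 468 bases, Rnase2a shared 83.7% of aligned positions with Rnase2b, its closest copy, and 77.2% with Ear6, its most distant one. Ear2 and Ear10 were the most similar pair, at 97.0%, followed by Ear1 and Ear2 at 95.1%.

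Windows of 50, 100 and 150 bases were cut from the longest transcript of each gene and searched in the annotated transcripts of all other genes, on both strands, because the read length is not given in the sources used here. For Rnase2a, each of 641 windows of 50 bases was found in no other gene, and the same held for Rnase2b, Prg2 and Epx at all 3 window lengths. For Ear6, 98.9% of the 50-base windows and 100% of the longer ones were unique. For Ear2, 58.5% of the 50-base windows and 86.1% of the 100-base windows were unique, and Ear10 was the gene with which it shared most windows. Ear1 had 42.6% unique windows of 50 bases and shared most with the pseudogene Ear-ps9. An error-free read of 50 or more bases from the Rnase2a transcript therefore has no annotated transcript of another gene to match, whereas the division of reads among Ear1, Ear2 and Ear10 is uncertain. How reads that match several genes were counted is not stated.

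**Figure D1:**
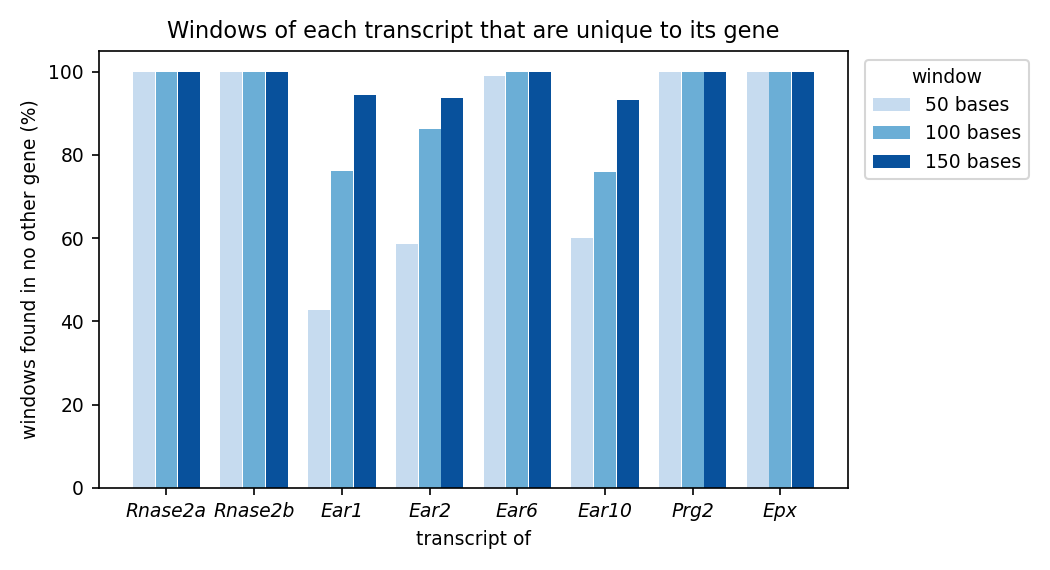
Share of windows (%, y axis) of each gene's longest transcript (x axis) that occur in no annotated transcript of another gene, with 1 bar per window length of 50, 100 or 150 bases. Rnase2a, Rnase2b, Prg2 and Epx stand at 100% for each length, while Ear1, Ear2 and Ear10 reach 42.6%, 58.5% and 60.1% at 50 bases.

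Rnase2a had by far the widest difference of the 8 genes. Rnase2a (ENSMUSG00000047222) occupies positions 51255262 to 51256112 of chromosome 14 (GRCm38, minus strand), has 2 exons and is also named Ear11. The control libraries held 8, 14 and 17 reads of Rnase2a, and the DB2313 libraries 884, 810 and 872. The lowest DB2313 library therefore lay far above the highest control library, and the 3 DB2313 libraries were nearly equal. As CPM (counts per 1000000 counts of a library, after TMM scaling of the library sizes), the level was 0.765 ± 0.301 for control and 47.6 ± 0.249 for DB2313 (SD, n = 3 per group). The log2 fold change was 5.96 (standard error 0.14). Because the control level rests on 39 counts in all, the ratio of the pooled counts, 62.9, had an exact 95% interval from 45.9 to 88.7 that covers counting error only.

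**Figure D2:**
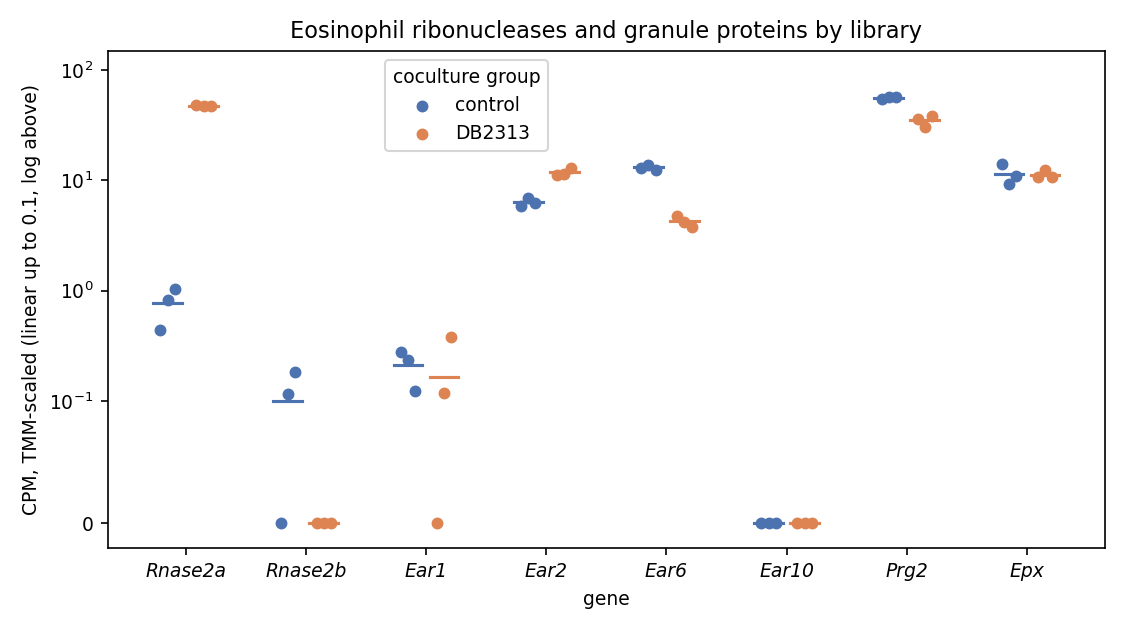
Level of each of the 8 genes (x axis) in each library, as TMM-scaled CPM (y axis, linear up to 0.1 and logarithmic above). Points are libraries, blue for control and orange for DB2313, and lines are group means. Rnase2a stands at 0.443 to 1.04 CPM in the control libraries and at 47.4 to 47.9 CPM in the DB2313 libraries, and the groups overlap for Epx.

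The promoters of Rnase2a, of its closest copy Rnase2b and of Ear2 are shown because these copies resemble each other but had different levels in the libraries. Each sequence holds the 250 bases before the RefSeq start on GRCm38.p6, and capitals mark TTGCATCA, TTGCNNAA and TATATCTA.
Rnase2a, chr14:51256113-51256362, minus strand: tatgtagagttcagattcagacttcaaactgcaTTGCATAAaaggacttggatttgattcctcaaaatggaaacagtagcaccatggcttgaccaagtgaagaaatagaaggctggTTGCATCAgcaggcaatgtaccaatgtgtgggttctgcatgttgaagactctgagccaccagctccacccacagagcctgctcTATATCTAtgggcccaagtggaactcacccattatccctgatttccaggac
Rnase2b, chr14:51162010-51162259, plus strand: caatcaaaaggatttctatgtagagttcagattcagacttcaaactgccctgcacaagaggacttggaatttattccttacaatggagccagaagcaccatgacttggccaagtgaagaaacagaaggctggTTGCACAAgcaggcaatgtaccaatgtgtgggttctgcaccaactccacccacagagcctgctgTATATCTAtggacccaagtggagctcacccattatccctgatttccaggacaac
Ear2, chr14:44102404-44102653, plus strand: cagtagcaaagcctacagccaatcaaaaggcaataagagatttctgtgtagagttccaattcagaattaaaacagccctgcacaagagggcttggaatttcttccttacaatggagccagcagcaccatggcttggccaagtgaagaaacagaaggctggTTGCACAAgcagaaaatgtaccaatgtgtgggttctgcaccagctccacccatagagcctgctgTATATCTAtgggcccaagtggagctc
All 6 ribonuclease promoters held TATATCTA, a TATA-type element that 0.438% of the 32851 promoters of this length hold on either strand. TTGCATCA, which reads TGATGCAA on the other strand and is known as a composite element of C/EBP and ATF factors, was found in Rnase2a and in no other of the 7 genes with a promoter sequence, against 0.792% of all promoters. The letters aligned to it were TTGCACAA in Rnase2b, Ear1, Ear2 and Ear10, and TTACACAA in Ear6. The C/EBP-type motif TTGCNNAA, which 9.56% of all promoters hold, matched Rnase2b, Ear1, Ear2 and Ear10 at these letters and Rnase2a at another position, 217 to 210 bases before the start. GAGGAA, the core of many Spi1 sites, was found in Rnase2a on the opposite strand and in none of the other 6 genes, against 23.3% of all promoters. AGATAA, which many binding sites of the GATA factors contain, was found in none of the 7, against 9.99% of all promoters. The motifs were chosen after the sequences had been read, both strands were searched, none of the matches overlapped another, and a match is not evidence of a bound site.

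Ear2 and Ear6 differed between the groups in opposite directions. Ear2 (ENSMUSG00000072596, chromosome 14 from 44102654 to 44103534, plus strand, 2 exons) had 105, 120 and 103 counts under control and 205, 195 and 239 under DB2313. Its groups did not overlap, with 6.36 ± 0.585 CPM for control and 11.8 ± 1.01 CPM for DB2313 (SD, n = 3 per group), a log2 fold change of 0.90 (standard error 0.13). Ear6 (ENSMUSG00000062148, chromosome 14 from 51853699 to 51854643, plus strand) had 235, 239 and 204 counts under control and 87, 72 and 70 under DB2313. The Ear6 groups did not overlap either, but here the control libraries were the high ones, at 13.1 ± 0.728 against 4.24 ± 0.453 CPM (SD, n = 3 each), a log2 fold change of -1.63 (standard error 0.13). The 2 genes encode ribonucleases that share 87.6% of their coding positions. The ratio of Ear6 to Ear2 counts was 1.98 to 2.24 in the control libraries and 0.293 to 0.424 in the DB2313 libraries. The size of this ratio within a group is uncertain, since reads that match several copies may be missing from the Ear2 counts.

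The 3 remaining ribonucleases were barely counted and did not pass the filter on low counts. Ear1 (ENSMUSG00000072601, chromosome 14 from 43818765 to 43875517, minus strand) had 5, 4 and 2 counts under control and 0, 2 and 7 under DB2313. These values overlapped, and the ratio of the pooled counts was 0.783 with an exact 95% interval from 0.287 to 2.08. Rnase2b (ENSMUSG00000059606, chromosome 14 from 51162260 to 51163018, plus strand), the copy most like Rnase2a, had 0, 2 and 3 counts under control and none under DB2313. A count of 0 allows up to 3 counts, at most 0.183 CPM in any library, so no fold is given. Ear10 (ENSMUSG00000090166, chromosome 14 from 43922720 to 43923559, minus strand) had a count of 0 in all 6 libraries, although 60.1% of its 50-base windows were unique to it. A difference in Rnase2b or Ear10 was not detectable at this depth. The span annotated for Ear1 contains the pseudogene Ear-ps12 and overlaps Ear-ps9, and all 10 Ear pseudogenes between the outermost copies were listed at 0.

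The make-up of the ribonuclease counts was therefore turned over between the groups. Rnase2a made up 2.27%, 3.69% and 5.17% of the counts of the 6 ribonucleases in the control libraries, and 75.2%, 75.1% and 73.4% in the DB2313 libraries. The Wilson 95% intervals of these shares reached up to 8.12% in the control libraries and down to 70.8% in the DB2313 libraries. The share of Ear6 was 63.9% ± 2.39 for control and 6.65% ± 0.753 for DB2313, and Ear2 held 30.9% ± 1.02 and 18.5% ± 1.40 (SD, n = 3 each). The summed level of the 6 genes was 20.6 ± 1.31 CPM for control and 63.8 ± 0.680 CPM for DB2313, whereas without Rnase2a it was 19.8 ± 1.24 and 16.2 ± 0.802 CPM (SD, n = 3 each). With the copies summed into 1 row, the log2 fold change was 1.63 (standard error 0.07). Summing removes a wrong division of counted reads among these copies. It does not restore reads that may have been left uncounted because they match several genes, which also limits the shares above.

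**Figure D3:**
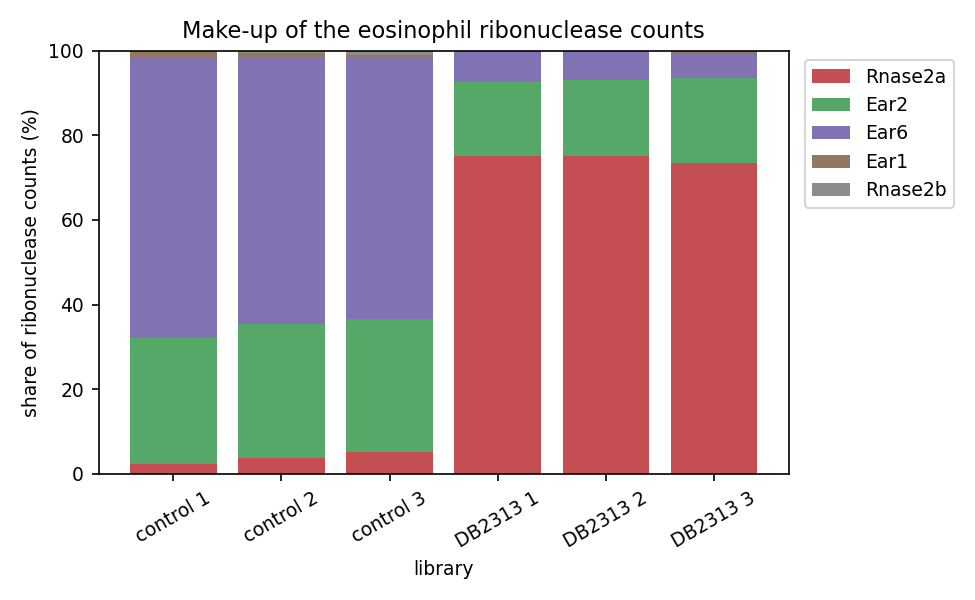
Share of each gene (%, y axis) in the summed counts of the eosinophil ribonucleases, with 1 bar per library (x axis). Ear6 is the largest part of each control library (62.0% to 66.6%) and Rnase2a of each DB2313 library (73.4% to 75.2%).

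Prg2 and Epx, the granule proteins that are not ribonucleases, did not follow Rnase2a. Prg2 (ENSMUSG00000027073, chromosome 2 from 84980461 to 84983632, plus strand, 6 exons) encodes major basic protein, a cationic toxin that forms the core of the eosinophil granule. Its counts were 990, 981 and 938 under control and 669, 522 and 706 under DB2313. The control libraries were the high ones without overlap, at 56.4 ± 1.35 against 35.1 ± 4.02 CPM (SD, n = 3 each), a log2 fold change of -0.68 (standard error 0.07). Epx (ENSMUSG00000052234, chromosome 11 from 87864000 to 87875536, minus strand, 13 exons) encodes eosinophil peroxidase, which makes hypohalous acids from hydrogen peroxide. Its counts were 254, 158 and 181 under control and 199, 211 and 197 under DB2313. These ranges overlapped fully, with 11.4 ± 2.46 and 11.3 ± 0.939 CPM (SD, n = 3 each), and the log2 fold change of -0.025 (standard error 0.13) turned positive with library size scaling (0.069) and upper quartile scaling (0.040), so no direction is given.

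Levels of different genes were compared as CPM per kb of gene length. In the control group, the order was Prg2 at 67.3, Ear6 at 13.9, Ear2 at 8.85, Epx at 4.18 and Rnase2a at 1.11 CPM per kb, and each of these stood above the next with no overlap between libraries. The order of Ear6 and Ear2 in the control group is uncertain, since 98.9% and 58.5% of their 50-base windows were unique. If reads that match several genes were not counted, the Ear2 level is too low. In the DB2313 group, Rnase2a came first at 68.9 CPM per kb, followed by Prg2 at 41.8 and Ear2 at 16.5. Ear6 at 4.49 and Epx at 4.12 CPM per kb overlapped and could not be ranked. Ear1, Rnase2b and Ear10 formed the end of the order in both groups, at means of 0.289 CPM per kb or less, and each overlapped with the next.

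Of the 8 genes, 5 passed the filter. In edgeR's quasi-likelihood test, where a call needed a log2 fold change beyond 1 in size at adjusted p under 0.05, Rnase2a was called higher, as were 1.37% of the 14883 tested genes, and Ear6 was called lower, as were 5.3%. The groups did not overlap for 4 of the 5 genes, as for 53.1% of all tested genes, with DB2313 above for 2 of them (25.6% of all) and control above for 2 (27.5%). The median log2 fold change of the 5 genes was -0.025, against 0.019 over all tested genes. Since these values chose the genes, nothing is read from the counts of calls.

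**Figure D4:**
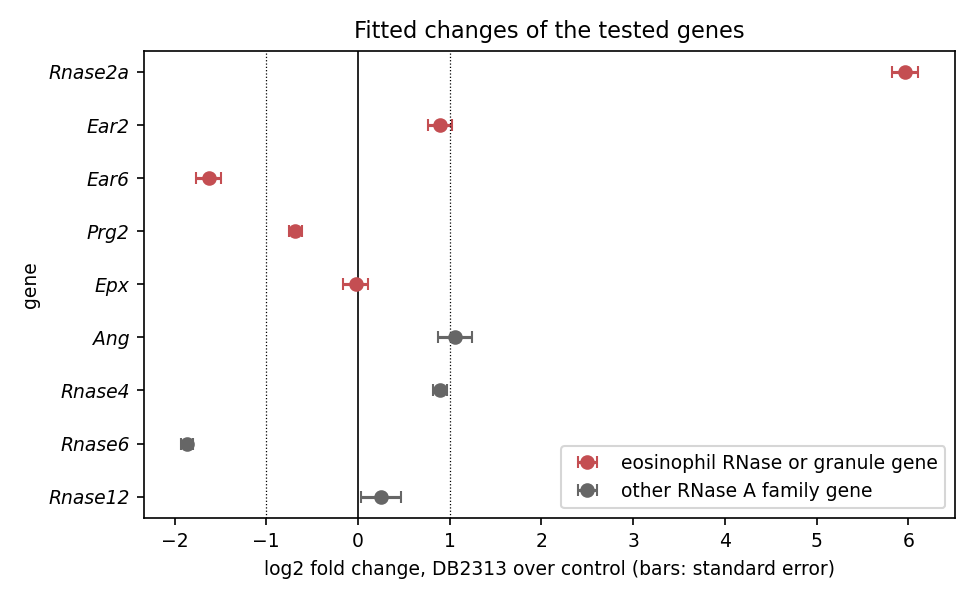
Fitted log2 fold change of DB2313 over control (x axis) for the 5 eosinophil ribonuclease and granule genes that were tested (red) and the 4 other RNase A family genes that were tested (grey), with standard errors as bars and dotted lines at -1 and 1. Rnase2a stands at 5.96, while the other genes lie between -1.87 and 1.05.

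The rest of the RNase A family was followed as a list of 15 genes that are not in the eosinophil set, of which 14 are in the table and 4 were tested. Of these 4, 1 was called higher and 1 lower, as were 1.37% and 5.3% of all tested genes. Rnase6 (ENSMUSG00000021880), an antimicrobial ribonuclease of macrophages and monocytes, fell from 72.8 ± 1.40 to 19.96 ± 0.587 CPM (SD, n = 3 each), with a log2 fold change of -1.87 (standard error 0.06) and an adjusted p of 3.65e-17 in edgeR's quasi-likelihood test. Ang (ENSMUSG00000072115), which encodes angiogenin, a ribonuclease that promotes vessel growth, rose from 2.73 ± 0.113 to 5.69 ± 0.412 CPM (SD, n = 3 each), with a log2 fold change of 1.05 (standard error 0.18) and an adjusted p of 4.67e-05 in the same edgeR test. Without DB2313 replicate 2, the Ang difference was 0.996 on the log2 scale and no longer past the fold threshold. Rnase4, which shares its promoters with Ang, stood at 20.2 and 37.7 CPM, with a log2 fold change of 0.90 (standard error 0.08, edgeR adjusted p 7.18e-10) that did not reach the fold threshold. The spans of Ang and Rnase4 overlap by 10860 bases on the same strand, so the division of reads between them is uncertain. Rnase12 stood at 2.63 and 3.14 CPM (edgeR adjusted p 0.376). The median of the 4 log2 fold changes was 0.57, and 6 of the 14 genes had no count.

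Genes that act with the granule proteins were listed as 6 genes, of which 4 were tested. None of the 4 passed both thresholds in edgeR or in DESeq2, while 2 were higher and 1 lower at an unadjusted edgeR p below 0.05, and the median log2 fold change was 0.33. Mpo, the myeloperoxidase related to Epx, stood at 148 ± 5.66 and 288 ± 6.44 CPM (SD, n = 3 each), a log2 fold change of 0.95 (standard error 0.04, edgeR adjusted p 5.16e-16). Rnh1, which encodes the cytosolic inhibitor that binds RNase A family enzymes, stood at 297 ± 7.10 and 228 ± 2.80 CPM, a log2 fold change of -0.39 (standard error 0.03, edgeR adjusted p 1.64e-09). Prg3, the paralog of Prg2 that begins 4583 bases behind it, had 35, 21 and 27 counts under control and 47, 61 and 31 under DB2313. Its groups overlapped (log2 fold change 0.69, standard error 0.30, edgeR adjusted p 0.0681), and the direction was not that of Prg2.

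The levels of other eosinophil genes were set beside those of the granule genes. Of 7 eosinophil markers, all were counted and tested, with a median log2 fold change of -0.53. Of these, 1 was called, in the lower direction, as were 5.3% of all tested genes. This was Siglecf, a sialic acid-binding receptor of eosinophils and alveolar macrophages, which fell from 13.9 ± 1.48 to 3.35 ± 0.309 CPM (SD, n = 3 each), with a log2 fold change of -2.06 (standard error 0.14) and an edgeR adjusted p of 2.32e-11. Ccr3, the eotaxin receptor, had 20, 18 and 14 counts under control and 24, 26 and 12 under DB2313 (edgeR adjusted p 0.706). Il5ra, the receptor chain for the eosinophil growth factor IL-5, had 26, 42 and 31 counts and 24, 15 and 33 counts (edgeR adjusted p 0.204). Both were low, and their groups overlapped. The summed share of the 7 markers was 0.00726% to 0.00799% of the counts in the control libraries and 0.00448% to 0.00501% in the DB2313 libraries. Il1rl1, the IL-33 receptor that mast cells also carry, made up most of that sum. The markers did not all move with the sum. Log2 fold changes were positive for the granule gene Prg3 (0.69, edgeR adjusted p 0.0681) and for Ccr3 (0.20). They were negative for Siglecf, Il1rl1 (-0.76), Hrh4 (-0.63), Il5ra (-0.53) and Alox15 (-0.33). By edgeR adjusted p alone, 2 of the 7 were lower and 0 higher. The part that the number of eosinophils takes in the differences of Rnase2a, Ear2, Ear6 and Prg2 was not tested.

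Among 12 transcription factors of eosinophil development, all were tested and 1 was called, in the lower direction, as were 5.3% of all tested genes. Irf8 fell from 333 ± 4.81 to 158 ± 2.996 CPM (SD, n = 3 each; log2 fold change -1.08, standard error 0.03, edgeR adjusted p 1.10e-17). The Irf8 log2 fold change was -0.985 with library size scaling, short of the fold threshold, which left 0 of the list called lower. Spi1, the target of DB2313, stood at 286 ± 6.75 and 156 ± 6.20 CPM, a log2 fold change of -0.88 (standard error 0.04, edgeR adjusted p 2.58e-15). Gata1, a factor that directs eosinophil development, stood at 22.4 ± 0.377 and 36.0 ± 4.02 CPM, a log2 fold change of 0.68 (standard error 0.08, edgeR adjusted p 2.43e-07). Cebpe, which is needed for granule gene expression, stood at 20.1 ± 0.560 and 13.6 ± 0.480 CPM, a log2 fold change of -0.56 (standard error 0.09, edgeR adjusted p 2.01e-05). Gata2 stood at 68.0 and 67.1 CPM. The median over the list was -0.11.

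Among 12 cytokines, chemokines and shared receptor chains that act on eosinophils, 7 were tested and 5 fell in edgeR's test, with a median log2 fold change of -1.29. Of all tested genes, 5.3% were called lower. The receptor chains Csf2rb, Csf2rb2 and Csf2ra, through which IL-3, IL-5 or GM-CSF signal, had log2 fold changes of -1.29, -1.39 and -1.01. Csf2rb and Csf2rb2 are related copies whose sequences were not compared here, so their reads may be divided wrongly. The Csf2ra log2 fold change was -0.91 with library size scaling and -0.94 with upper quartile scaling, and -0.98 to -0.99 when the second or the third control library or the third DB2313 library was left out, so that 4 genes of the list were called in each of these fits. The chemokine Ccl5 had a log2 fold change of -1.31. Ccl24, which encodes eotaxin-2, fell from 15.2 ± 1.18 to 1.65 ± 0.167 CPM (SD, n = 3 each; log2 fold change -3.20, standard error 0.16, edgeR adjusted p 3.53e-14). Il5 had 2 counts in all, both in DB2313 libraries, and Ccl11 had none.

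Since some Ear genes are transcribed in macrophages, 12 genes of alternative macrophage activation were followed, of which 11 were tested. Of these, 1 rose and 3 fell past both thresholds, as did 1.37% and 5.3% of all tested genes, and the median log2 fold change was -0.72. Clec10a, a lectin, rose from 38.9 ± 1.16 to 88.0 ± 3.58 CPM (SD, n = 3 each; log2 fold change 1.18, standard error 0.05, edgeR adjusted p 1.40e-14). Retnla, which encodes the secreted protein Fizz1, had 28, 28 and 27 counts under control and none under DB2313, at least 9.64-fold lower against a floor of 3 counts per library (edgeR adjusted p 1.66e-07). Pdcd1lg2, which encodes PD-L2, fell with a log2 fold change of -1.99. Arg1, counted 15 to 26 times in the control libraries and 8 to 16 times in the DB2313 libraries, had a log2 fold change of -1.12 (edgeR adjusted p 0.0287), which did not pass in DESeq2 or with 4 of the 6 libraries left out in turn.

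Markers of other cells that such a culture can hold moved with the groups as well. Of 12 macrophage markers, 8 fell, with a median log2 fold change of -1.26. By adjusted p alone, all 12 were lower, as were 3667 of the 14883 tested genes. The same held for 8 of 9 neutrophil, 5 of 6 alveolar macrophage and 4 of 6 dendritic cell markers. The neutrophil, alveolar macrophage and dendritic cell lists each held 1 marker that was higher by adjusted p. Of 6 tested alveolar macrophage markers, 3 fell, among them Siglecf, with a median of -1.11, and the list took 0.0116% to 0.0120% of the control counts and 0.00276% to 0.00286% of the DB2313 counts. Of 9 neutrophil markers, 6 fell and 1, Retnlg, rose, with a median of -1.70 and a summed share of 0.188% to 0.189% against 0.0708% to 0.0725%. Retnlg was low, with 4, 4 and 7 counts under control and 20, 11 and 11 under DB2313 (edgeR adjusted p 0.0288). Of 6 tested dendritic cell markers, 3 fell, with a median of -1.29 and a summed share of 0.0177% to 0.0185% against 0.00863% to 0.00943%. Of 5 nonclassical monocyte markers, 1 rose and 1 fell, with a median of 0.0012 and a share of 0.0511% to 0.0523% against 0.0474% to 0.0491%. The one that rose, Ace, was low, with 6, 7 and 11 counts under control and 23, 21 and 25 under DB2313. The markers on the other side were those of granulocyte progenitors, of which Elane rose and all 5 were higher by adjusted p, with a median of 0.94 and a summed share of 0.0479% to 0.04999% against 0.0997% to 0.101%. Of 9 tested basophil and mast cell markers, 3 fell, namely the mast cell protease genes Cpa3, Cma1 and Tpsb2. By adjusted p alone, 4 of the 9 were higher and 4 lower. Mcpt8, Prss34, Fcer1a and Kit were the higher ones, with log2 fold changes of 0.52, 0.39, 0.50 and 0.13. Hdc was lower beside the 3 protease genes, with a log2 fold change of -0.18 (edgeR adjusted p 0.0288). The list had a median of 0.10 and a share of 0.117% to 0.118% against 0.101% to 0.103%. The 15 T cell markers and the 4 B cell markers held no gene past both thresholds in edgeR or DESeq2, with medians of 0.62 and 0.47, while 15 and 3 of them were higher by adjusted p alone, as were 20.8% of all tested genes, and 15 and 4 by unadjusted p. The B cell markers took 0.00351% to 0.00389% of the control counts and 0.00536% to 0.00569% of the DB2313 counts. Over all tested genes, 1.37% were called higher and 5.3% lower. Scaling to the T cell markers in place of TMM moved the median over all tested genes from 0.019 to -0.58 on the log2 scale. Positive differences smaller than this downward shift, such as the medians of the B cell and of the basophil and mast cell markers, therefore depend in direction on the scaling. The part of these cells in the differences of the ribonuclease and granule genes was not tested.

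**Figure D5:**
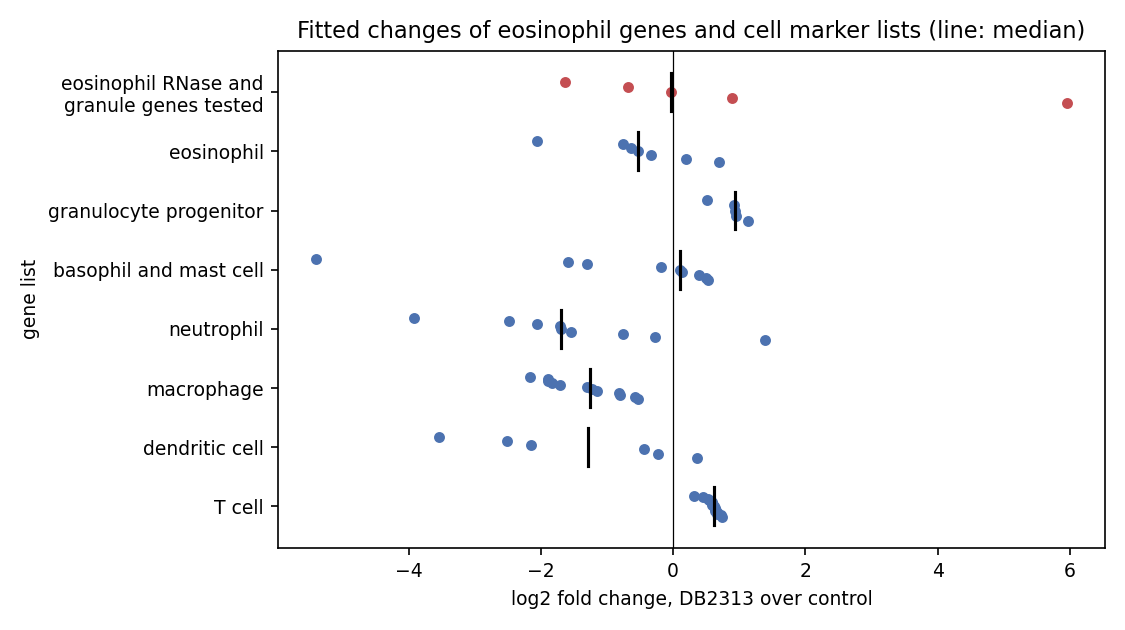
Fitted log2 fold change of DB2313 over control (x axis) of the tested genes in each list (y axis): the eosinophil ribonuclease and granule genes and the markers of eosinophils, granulocyte progenitors, basophils and mast cells, neutrophils, macrophages, dendritic cells and T cells. Points are genes and lines are list medians, with Rnase2a at 5.96 to the right of all others and medians of -0.53 for eosinophil and 0.94 for granulocyte progenitor markers.

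The ribonuclease genes span 8036 kb of chromosome 14, from 43818765 to 51854643, and 328 other genes are annotated between the outermost copies. Of these, 211 had no count and 51 were tested, while 27310 of all 54532 genes had at least 1 count and 14883 were tested. The median of their log2 fold changes was -0.098, with a range from -2.70 to 1.05. Ang was called higher, as were 1.37% of all tested genes. The 6 genes Ddhd1, Gm49125, A530076I17Rik, Tlr11, Tep1 and Rnase6 were called lower, as were 5.3% of all. The nearest protein-coding genes on either side of Rnase2a, Ear14 and Gm7247, had no count in any library. Ear14, itself a member of the ribonuclease family, ends 50924 bases from Rnase2a on the opposite strand. Behind Ear6, Mettl17 stood at 31.0 and 34.4 CPM. Beside Prg2, Slc43a3 stood at 28.5 and 28.7 CPM, and beside Epx, Mks1, which ends 197 bases from it, stood at 8.51 and 9.54 CPM.

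The profile of each member that reached 10 CPM in a group was compared with those of all tested protein-coding genes, by the distance between centred log2 CPM values over the 6 libraries. No gene came close to Rnase2a by this distance, which grows with the size of the difference for which Rnase2a was chosen. The nearest were Mmp10, Rbp4 and Mmp27 at distances of 2.46, 3.78 and 3.82 on the log2 scale. The Mmp10 distance also depends on the prior count, which is added to the counts before logs are taken. Rbp4, which encodes the plasma carrier of retinol, stood at 1.498 ± 0.251 and 11.0 ± 0.567 CPM, the matrix metalloproteinase gene Mmp27 at 0.608 ± 0.235 and 4.52 ± 0.762 CPM, and Mmp10 at 0 and 1.64 ± 0.290 CPM (SD, n = 3 each). Mmp10 had no count in the control libraries and was at least 9.38-fold higher under DB2313 against a floor of 3 counts per library. By fitted log2 fold change, which for Mmp10 depends on the prior count, Rnase2a ranked 2 of the 14883 tested genes, behind Mmp10. The other members had close neighbours in profile: Gbp10, Ache and Hmgn5 for Ear2, at distances of 0.154 to 0.173; F10, Lacc1 and Cgnl1 for Ear6, at 0.158 to 0.166; Vwf, Osbpl1a and Akr1e1 for Prg2, at 0.104 to 0.136; and Sgo2a, Brca2 and Guca1b for Epx, at 0.148 to 0.195. The distances rest on 6 libraries in 2 groups and carry no test.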

How the data were processed

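The authors deposited 1 table of raw read counts per gene for 6 libraries. The submitters' processing notes name CASAVA 1.8, HISAT2 2.0.5 and featureCounts 1.5.0-p3, whereas the study's methods name LifeScope. Which of them made the counts, and the genome build, read length, strand setting and treatment of reads that match several genes, are not given in the sources used here. Gene coordinates in the table matched GENCODE M21 (GRCm38) for 98.3% of the shared genes and for all 8 members.

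Counts were analysed in R 4.3.3 with edgeR 4.0.16 (limma 3.58.1): filterByExpr kept 14883 genes, libraries were scaled by TMM, and the quasi-likelihood test compared the groups, with Benjamini-Hochberg adjustment over all tested genes. A call needed an adjusted p under 0.05 together with a log2 fold change beyond 1 in size. CPM are counts per 1000000 counts of the scaled library. The procedure was checked on simulated counts. Sequences came from GENCODE M21 transcripts and RefSeq promoters and were aligned with Biopython 1.88. Intervals and floors (3 counts for a count of 0) cover counting error only.

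Members, lists, motifs and tests were chosen with earlier results of these data known. Named were all members, called genes between the outermost ribonuclease genes and the nearest tested neighbours of Prg2 and Epx, up to 4 called genes and the defining markers per list, and the 3 genes nearest in profile. Mettl17, Ear14, Gm7247, Ccl24, uncalled genes of the lists and members of lists with more than 4 calls were named after their values were seen. Alternatives were DESeq2 1.42.0, other scalings, filters and thresholds, a replicate block, summed copies and leaving out each library. Same-numbered libraries correlated between -0.00389 and 0.0187 in their deviations from the group means, so the numbers were not taken as pairs.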

Additional observations from a re-analysis of the deposited data

How the results depend on the processing

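Rnase2a, Ear2, Ear6 and Prg2 kept their directions under every alternative run on them. With a minimum of 10 counts in every library, Rnase2a was not tested. Scaling to the T cell markers moved the median of all genes from 0.019 to -0.58 on the log2 scale, and gave log2 fold changes of 5.36 for Rnase2a, 0.29 for Ear2, -2.23 for Ear6, -1.29 for Prg2, -0.63 for Epx and 1.03 for the summed ribonucleases, which library size scaling put at 1.73. Leaving out each library gave 5.68 to 6.24 for Rnase2a, 0.82 to 0.97 for Ear2, -1.71 to -1.55 for Ear6, -0.75 to -0.60 for Prg2, -0.16 to 0.16 for Epx and 1.60 to 1.69 for the sum, and a Rnase2a share of 2.98% to 4.43% in the control and 74.2% to 75.1% in the DB2313 group. Of all genes, 204 were called higher and 789 lower. The counts were 278 and 674 with library size scaling, 50 and 2584 with T cell marker scaling, 3096 and 3667 by adjusted p alone, and 30 and 400 against a fold of 1 on the log2 scale (glmTreat). With at least 10 counts in every library 103 were higher, and among protein-coding genes 133. Leaving out each library gave 204 to 223 higher and 766 to 828 lower. A fit with the replicate number as a block called 201 and 790 and gave 5.96, 0.89, -1.63, -0.69 and -0.013 for Rnase2a, Ear2, Ear6, Prg2 and Epx. T cell marker scaling left 0 other RNase A genes higher (0 to 1 with a library left out), 4 transcription factors lower, and 0 higher and 9 lower genes of alternative activation. Library size scaling left 0 transcription factors lower, library size and upper quartile scaling called 1 peroxidase or partner gene higher, and the minimum of 10 counts left 1 alternative activation gene lower. With libraries left out, 2 to 3 of these and 4 to 5 cytokine or receptor genes were lower. Library size and upper quartile scaling called 4 cytokine or receptor genes lower. The causes were not tested. Depth limits Ear1, Rnase2b and Ear10, and the control level of Rnase2a.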
